A study of Homo sapiens with 3 samples.

Results

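The 10 genes described here encode the main heat shock proteins and chaperones of the cytosol, the mitochondrion and the endoplasmic reticulum, and were taken by gene symbol from the deposited peak tables: HSPA8, HSP90AB1, HSPD1, HSPE1, HSP90AA1, HSPA1A, HSPA1B, DNAJB1, HSPA5 and HSP90B1, of 20056 protein-coding genes in all. Every table line with one of these symbols was used and each peak was counted once. This gave 7 of the 11565 Flag-USP39 peaks, at 3 of the 10 genes, and 19 of the 14027 POLR2A peaks, at 8 of the 10 genes. The study precipitated chromatin of A2780, labelled a serous ovarian cancer line. One library came from cells with Flag-USP39 and an anti-Flag antibody, one came from an anti-POLR2A precipitation, the positive control, and one was the input, for which 10% of genomic DNA was taken. POLR2A encodes the catalytic subunit of RNA polymerase II. All 3 libraries came from this line, with no drug, heat or other stress given in the labels. An anti-Flag precipitation of cells without the tag was not analysed here. The labels do not state how the tagged protein was introduced, and the tables hold no RNA levels against which the cell type could be checked.

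Chaperones bind unfolded or partly folded proteins and help them fold. HSP70 proteins do so in cycles of ATP hydrolysis that J-domain co-chaperones stimulate, HSP90 proteins act later on clients such as kinases and steroid receptors, and the mitochondrial chaperonin encloses its clients in a chamber. Heat and other proteotoxic stress activate the transcription factor HSF1, which binds heat shock elements, and release promoter-proximal RNA polymerase II into the gene. Stress of the endoplasmic reticulum acts through other factors on the genes of that compartment. USP39, a ubiquitin-specific protease family member by sequence, is known as a component of the spliceosomal tri-snRNP. By their textbook regulation the genes were set in 3 groups: 4 constitutive (HSPA8, HSP90AB1, HSPD1, HSPE1), 4 heat-inducible of the cytosol (HSP90AA1, HSPA1A, HSPA1B, DNAJB1) and 2 of the endoplasmic reticulum (HSPA5, HSP90B1). Some of those called constitutive, HSP90AB1 and HSPD1 among them, are also known to respond to heat.

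Each antibody had 1 library and both lists were called against the same input, so no difference between antibodies or between gene groups was tested. Tags are the reads counted in a peak. The lists held at least 3 tags in each Flag-USP39 peak and at least 4 in each POLR2A peak, with a median of 4 tags in both, and tags in peaks summed to 62327 and 86228. Ranges after a tag count are exact 95% Poisson intervals and cover counting error only. A gene without a listed peak is one whose symbol was given to no peak that reached the authors' threshold. A peak inside a gene can be listed under the symbol of a neighbour. Fold enrichment over background is the authors' value for each peak. Positions of peaks are on hg19.

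By symbol, Flag-USP39 peaks were listed inside HSPA8, HSPA5 and HSP90AA1, and none of the 10 genes had one of promoter class. By position HSP90B1 also held Flag-USP39 peaks, which are listed under other symbols and described below. The 3 genes with a peak (30%) stand beside 25.1% of all protein-coding genes with a Flag-USP39 peak, so the count of genes was near that of genes at large. The promoter class, which holds peaks within 2 kb of a transcription start site, took 0 of the 10 genes, against a share of 2.47% of protein-coding genes. For 10 genes a count of 0 is near this share. Exon- or intron-class peaks lay at the same 3 genes, and 11.9% of protein-coding genes had one. POLR2A peaks were listed at 8 of the 10 genes, against 33.3% of protein-coding genes, and were promoter-class at 5 of them, against 11.1%. Those 5 were HSP90AA1, HSP90AB1, HSP90B1, HSPA1B and DNAJB1. Exon- or intron-class POLR2A peaks lay at 4 genes, HSPA8, HSPA5, HSP90AA1 and HSP90AB1, against 13.6%. HSPE1, which encodes the lid of the mitochondrial chaperonin, and HSPA1A had no peak under their symbols in either list. The lists gave no coordinates for HSPE1 and HSPA1A, so peaks at them under other symbols were not looked for.

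**Figure D1:**
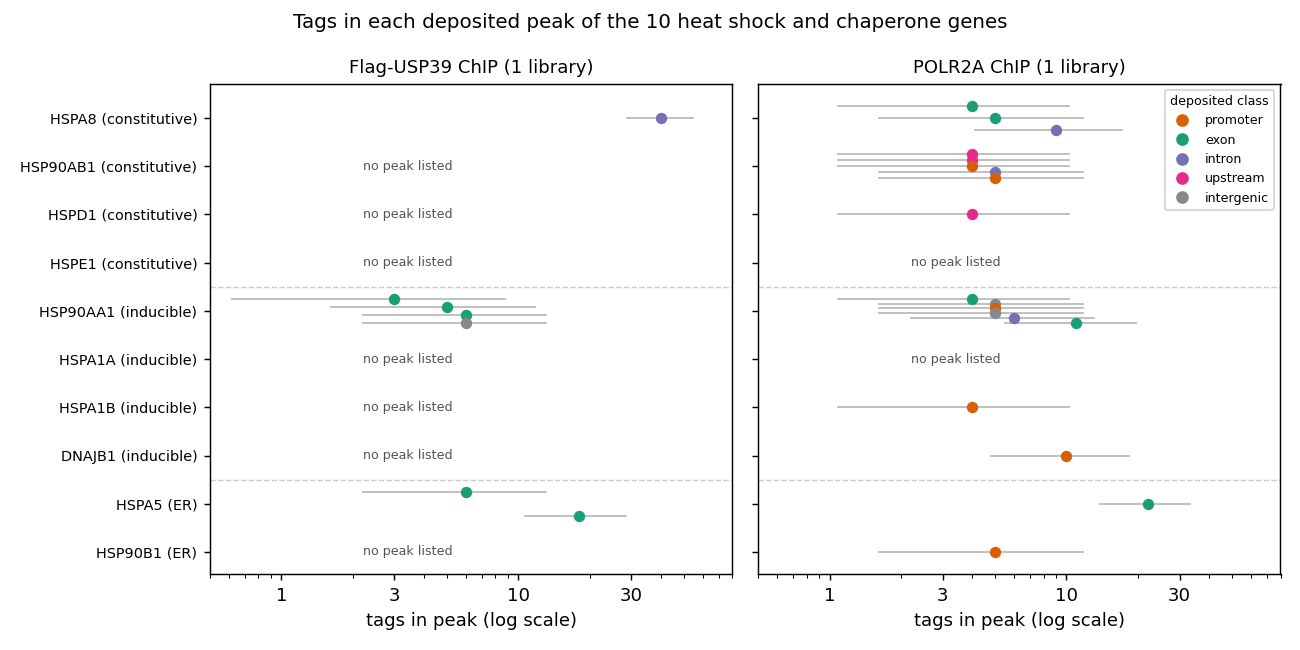
Tags in each deposited peak of the 10 genes (x axis, log scale), Flag-USP39 left and POLR2A right; each point is 1 peak of 1 library, coloured by its deposited class, and grey lines are exact 95% Poisson intervals. The HSPA8 peak of 40 Flag-USP39 tags lies far to the right of the other Flag-USP39 points, and all orange promoter points are in the POLR2A panel.

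HSPA8 encodes the constitutive cytosolic HSP70, which among other tasks uncoats clathrin vesicles. It carried 40 Flag-USP39 tags (28.6 to 54.5) in 1 intron-class peak at chr11:122928273-122930827, 2555 bp wide, with a fold enrichment of 85.8. The peak ran from 2216 to 4770 bp past the start site of a 4844 bp transcript and ended 74 bp short of the annotated transcript end. It held the most tags of any peak of the 10 genes, 47.6% of their 84 Flag-USP39 tags. It ranked 69th by tags among all Flag-USP39 peaks, and 12 peaks of that list, itself included, were as wide or wider, where the median width was 300 bp.

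POLR2A tags at HSPA8 lay within the same stretch but in 3 short peaks. They held 5 tags (1.62 to 11.7) at 2307 to 2685 bp, 4 tags (1.09 to 10.2) at 3042 to 3323 bp and 9 tags (4.12 to 17.1) at 3655 to 4093 bp from the start site. Together they had 18 tags (10.7 to 28.4) over 1100 bp, or 22.7% of the transcript, whereas the Flag-USP39 peak covered 52.7% of it. Per kb of peak the densities were 15.7 Flag-USP39 and 16.4 POLR2A tags, in libraries whose total depth is unknown. Each POLR2A peak lay wholly inside the Flag-USP39 peak. Those of 5 and 4 tags were of exon class and that of 9 tags was of intron class. The summits, the points of highest signal, of the Flag-USP39 peak and of the POLR2A peak with 9 tags were 16 bp apart. Neither list had a promoter-class peak at HSPA8.

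HSPA5 encodes BiP, the HSP70 of the endoplasmic reticulum and a sensor of unfolded protein there. Its main peaks nearly coincided: 18 Flag-USP39 tags (10.7 to 28.4) at chr9:127998683-127999496 and 22 POLR2A tags (13.8 to 33.3) at chr9:127998593-127999445. They were 814 and 853 bp wide, shared 763 bp and had summits 64 bp apart. The fold enrichments were 33.0 for Flag-USP39 and 36.0 for POLR2A, and both were of exon class, centred 4577 and 4647 bp past the start of the 6540 bp transcript. This POLR2A peak held the most tags of any POLR2A peak of the 10 genes. A second, smaller Flag-USP39 peak of 6 tags (2.2 to 13.1) lay at 2049 to 2438 bp from the start, where the POLR2A list had no peak. As at HSPA8, no promoter-class peak was listed for either antibody.

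HSP90AA1 encodes the stress-inducible cytosolic HSP90. Along its 6438 bp transcript both lists had 3 peaks in the same places. From the start site on, Flag-USP39 held 5, 3 and 6 tags in peaks centred at 4003, 4795 and 5578 bp. POLR2A held 6, 4 and 11 tags in peaks centred at 3804, 4821 and 5751 bp. Summits of the overlapping pairs were 18, 25 and 163 bp apart. The Poisson intervals of the partners overlap in every pair. For example, they run from 0.619 to 8.77 for the peak of 3 Flag-USP39 tags and from 1.09 to 10.2 for its POLR2A partner of 4 tags. With counts this low and library depth unknown, such overlap does not show that the signals of the antibodies were alike. A further POLR2A peak, of 5 tags (1.62 to 11.7), lay across the start site from -69 to 576 bp, and Flag-USP39 had no peak there. The tables also gave HSP90AA1 intergenic-class peaks far beyond its end, 1 of 6 Flag-USP39 tags centred 50913 bp and 2 of 5 POLR2A tags each centred 29697 and 25780 bp past it; these did not overlap one another and carry the symbol only through the table's gene assignment.

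HSP90B1 encodes the HSP90 of the endoplasmic reticulum, which folds integrins and toll-like receptors among others. By symbol it had no Flag-USP39 peak and 1 POLR2A peak, of 5 tags (1.62 to 11.7) at chr12:104323049-104323624. That peak is also listed under MIR3652 and TTC41P and lay 487 to 1062 bp before the HSP90B1 start site. Inside the 17597 bp transcript, however, the tables placed 3 Flag-USP39 and 3 POLR2A peaks under the symbols of neighbouring genes, MIR3652, C12orf73 and TTC41P. Finding them by position was a step added after the data had been seen. In the direction of transcription the Flag-USP39 peaks held 9 (4.12 to 17.1), 4 (1.09 to 10.2) and 7 tags (2.81 to 14.4), and the POLR2A peaks held 8 (3.45 to 15.8), 4 (1.09 to 10.2) and 5 tags (1.62 to 11.7). They formed 3 pairs with summits 53, 11 and 15 bp apart, and each Flag-USP39 peak lay wholly within its POLR2A partner. The first pair was centred 3804 (Flag-USP39) and 3776 bp (POLR2A) past the start and the last one lay at the transcript end, 17504 and 17517 bp from the start. The fold enrichments of the Flag-USP39 peaks were 66.0, 40.6 and 57.7, and those of the POLR2A peaks 39.2, 23.3 and 25.2.

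**Figure D2:**
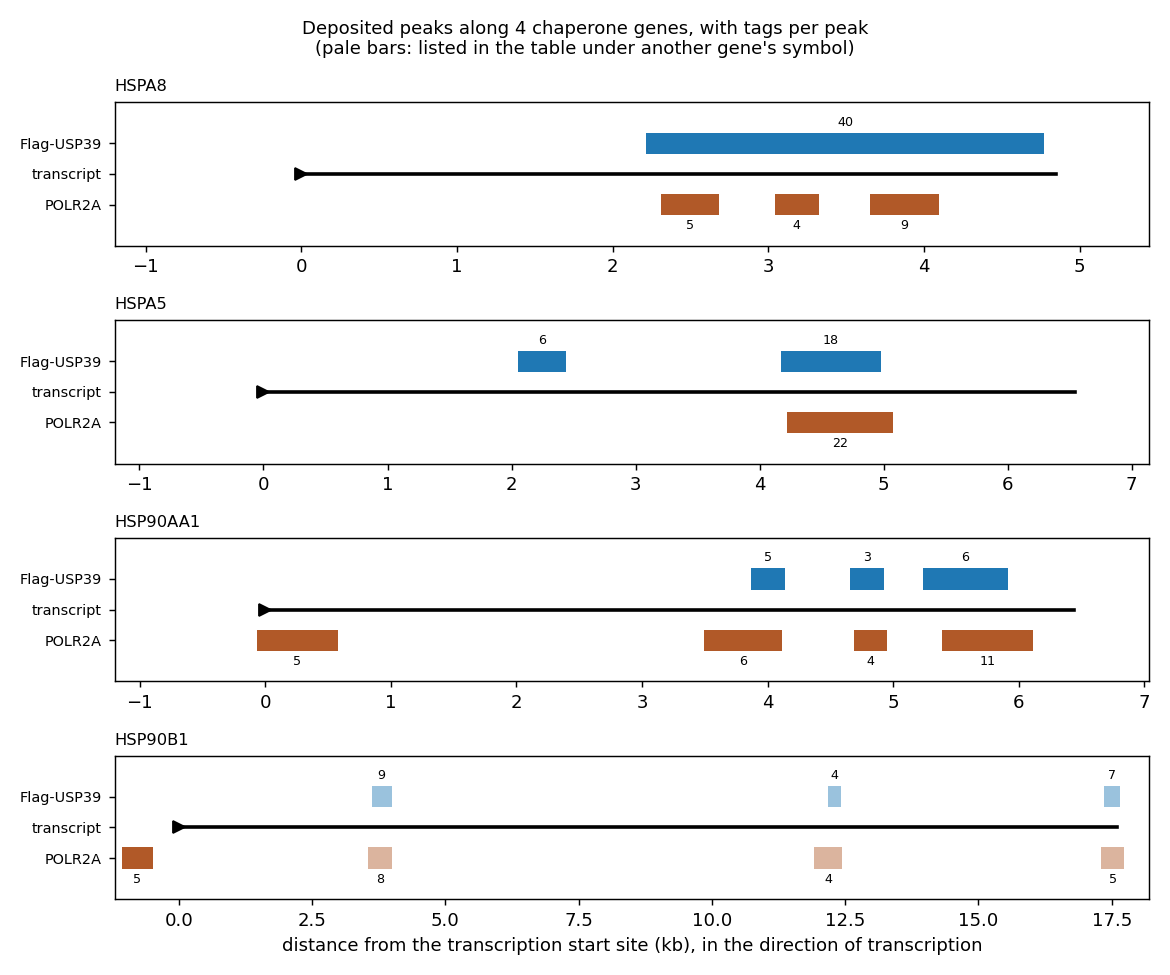
Peaks along HSPA8, HSPA5, HSP90AA1 and HSP90B1, drawn to scale as distance from the start site in kb; bars are single peaks, Flag-USP39 above and POLR2A below the transcript, with their tags. Flag-USP39 bars stand over POLR2A bars except for the HSPA5 peak of 6 tags, and the pale HSP90B1 bars are listed under other genes' symbols.

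Of the 7 Flag-USP39 peaks of the 10 genes, 5 shared 1 bp or more with a POLR2A peak, the exceptions being the HSPA5 peak of 6 tags and the intergenic one. In the whole Flag-USP39 list 6.04% of peaks overlapped a POLR2A peak, 6.32% of those of exon or intron class and 39.9% of those with at least 6 tags. Among the 5 peaks of the 10 genes with at least 6 tags, 3 overlapped one. When peaks were taken by position inside the transcripts of the 8 genes whose coordinates the tables give, 8 of 9 Flag-USP39 peaks, now at 4 genes, overlapped a POLR2A peak. In the other direction, none of the 6 promoter-class POLR2A peaks of the 10 genes met a Flag-USP39 peak, where 5.74% of all promoter-class POLR2A peaks did. For 6 peaks this is near the list-wide share, and it largely repeats that the 10 genes had no promoter-class Flag-USP39 peak. Of the 8 exon- or intron-class POLR2A peaks 7 met a Flag-USP39 peak, the exception being that of HSP90AB1, against 5.70% of all such peaks. That share covers peaks of any tag count, and none was taken at like tags. All POLR2A peaks of HSPA8 met the same Flag-USP39 peak. Peaks of 1 gene share the gene and its transcription. All overlapping peaks lay at HSPA8, HSPA5 and HSP90AA1, and by position also at HSP90B1.

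Of the 6 exon- or intron-class Flag-USP39 peaks 5 were centred past the midpoint of the transcript, at 62.2% to 86.6% of its length, and the smaller HSPA5 peak was at 34.3%. Of the 8 such POLR2A peaks 7 were past the midpoint, and the highest was at 89.3%. In the whole lists 43.6% of exon- or intron-class Flag-USP39 peaks and 48.4% of POLR2A peaks were. Since the promoter class takes the first 2 kb, a peak of these classes cannot be centred in the first 41.3% of HSPA8, 30.6% of HSPA5 or 31.1% of HSP90AA1. The part of this constraint in the counts was not tested. By position, the HSP90B1 pair with the most tags lay early, at 21.6% (Flag-USP39) and 21.5% (POLR2A) of the transcript, and the other pairs of that gene lay at 69.9% and 69.2%, and at 99.5% for both antibodies.

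The promoter-class POLR2A peaks of the 10 genes were small. DNAJB1, an inducible J-domain co-chaperone that stimulates HSP70, had the most tags, 10 (4.80 to 18.4) at chr19:14628883-14629594 with a fold enrichment of 54.3. This peak reached from -223 to 488 bp around the start of 1 of 2 listed transcripts, with its summit 301 bp downstream, and was the only DNAJB1 peak in either list. HSP90AB1, the constitutive cytosolic HSP90, had 2 promoter peaks, each astride one of its annotated start sites. They held 4 tags (1.09 to 10.2) at chr6:44213776-44214142 and 5 tags (1.62 to 11.7) at chr6:44214619-44215171, with summits 57 and 119 bp downstream of the nearer start. HSPA1B, one of 2 intronless genes for the inducible HSP70, had 4 tags (1.09 to 10.2) at chr6:31795034-31795557, from -477 to 46 bp. Its neighbour HSPA1A makes nearly the same protein, and reads that fit both genes may have been placed at either or dropped, so the values of both are uncertain. With the HSP90AA1 and HSP90B1 peaks given above these make 6 peaks. At the score of 50 that every Flag-USP39 peak reached (minus 10 times the log10 of the caller's p-value), only DNAJB1 and HSP90B1 of the 5 genes kept a promoter-class POLR2A peak, and at a score of 100 only DNAJB1 did.

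**Figure D3:**
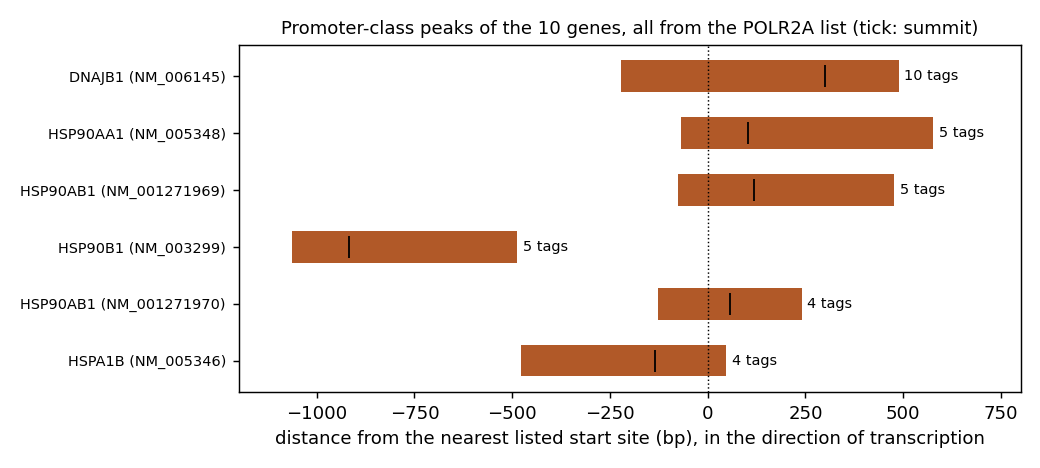
Promoter-class peaks of the 10 genes, drawn to scale as distance in bp from the nearest listed start site; each bar is 1 POLR2A peak, the tick is its summit and the number gives its tags. The bars of DNAJB1, HSP90AA1, HSP90AB1 and HSPA1B cross the start site, and the HSP90B1 bar ends 487 bp before it.

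The upstream sequences of 6 genes are shown because they carry the elements through which these genes are known to respond to stress and because the antibodies' peaks differ among them. They are the 250 bases before a RefSeq start site on GRCh38.p14, credited to RefSeq; the peaks are on hg19 and were not carried over to them. HSPA1A and HSPA1B come first, HSPA1A with no peak under its symbol and HSPA1B with a POLR2A peak at the start. They lie at chr6:31815293-31815542 (+ strand) and chr6:31827488-31827737 (+ strand), and match at 235 of 249 aligned bases (94.4%). Capitals mark the runs GAANNTTC and TTCNNGAA of the heat shock element, called heat shock units here. Each joins GAA and its reverse complement TTC, so a unit as counted here is a pair of inverted GAA blocks.
HSPA1A: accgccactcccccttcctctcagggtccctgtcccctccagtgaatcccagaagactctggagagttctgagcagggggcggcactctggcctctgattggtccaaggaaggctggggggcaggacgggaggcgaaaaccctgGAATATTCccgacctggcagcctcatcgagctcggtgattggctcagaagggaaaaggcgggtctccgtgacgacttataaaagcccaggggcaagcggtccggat
HSPA1B: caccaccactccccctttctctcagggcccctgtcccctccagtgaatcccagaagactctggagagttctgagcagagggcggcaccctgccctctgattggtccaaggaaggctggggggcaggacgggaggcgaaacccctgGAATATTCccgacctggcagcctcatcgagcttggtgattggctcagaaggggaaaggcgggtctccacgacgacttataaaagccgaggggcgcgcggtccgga

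DNAJB1, with the POLR2A promoter peak of most tags, has 3 RefSeq windows, of which the one with heat shock units is shown, at chr19:14518398-14518647 (- strand). HSPA8, with no promoter peak and the widest peak in its body, has 2 clusters of units in its window, at chr11:123062137-123062386 (- strand). Capitals again mark the units, which run into each other in HSPA8.
DNAJB1: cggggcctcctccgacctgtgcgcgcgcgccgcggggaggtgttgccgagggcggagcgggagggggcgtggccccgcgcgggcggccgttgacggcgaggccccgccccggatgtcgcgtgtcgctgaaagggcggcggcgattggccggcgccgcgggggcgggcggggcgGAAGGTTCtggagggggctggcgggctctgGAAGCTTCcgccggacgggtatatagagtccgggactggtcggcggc
HSPA8: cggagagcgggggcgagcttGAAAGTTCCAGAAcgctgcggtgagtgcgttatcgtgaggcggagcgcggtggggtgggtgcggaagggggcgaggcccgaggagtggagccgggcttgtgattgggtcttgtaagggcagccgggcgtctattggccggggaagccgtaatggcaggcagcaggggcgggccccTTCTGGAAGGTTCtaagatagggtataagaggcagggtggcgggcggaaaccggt

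The endoplasmic reticulum genes carry a different element. In HSPA5, at chr9:125241344-125241593 (- strand), and HSP90B1, at chr12:103930160-103930409 (+ strand), capitals mark the endoplasmic reticulum stress element, a CCAAT box followed by 9 unspecified bases and CCACG, on either strand.
HSPA5: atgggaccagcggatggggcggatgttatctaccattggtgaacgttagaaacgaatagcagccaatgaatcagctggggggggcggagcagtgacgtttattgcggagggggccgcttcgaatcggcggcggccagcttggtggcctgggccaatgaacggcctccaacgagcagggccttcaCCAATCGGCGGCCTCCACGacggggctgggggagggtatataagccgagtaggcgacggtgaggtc
HSP90B1: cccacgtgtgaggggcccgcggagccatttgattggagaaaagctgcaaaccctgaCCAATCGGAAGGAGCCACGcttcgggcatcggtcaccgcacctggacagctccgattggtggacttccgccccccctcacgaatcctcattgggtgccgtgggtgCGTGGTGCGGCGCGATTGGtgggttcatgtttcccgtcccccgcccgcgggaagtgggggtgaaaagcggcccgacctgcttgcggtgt

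Of 35114 RefSeq windows of this length, 11.6% held at least 1 heat shock unit, 5.78% GAANNTTC and 6.62% TTCNNGAA, on either strand; the units overlap in part where they stand side by side. Of the 10 genes 7 had a unit in at least 1 of their windows, namely the 4 inducible genes and HSPA8, HSP90AB1 and HSPD1. Counted by window, as the background is, 7 of the 16 windows of the 10 genes held a unit. The endoplasmic reticulum stress element stood in 0.074% of all windows and in those of HSPA5, once, and HSP90B1, on both strands. A CCAAT box was found in 32.0% of all windows, in 9 of the 16 windows of the 10 genes and at 7 of these genes. The sequence TATAAA stood in 10.7% of all windows and in 2 of the 16, those of HSPA1A and HSPA1B. Units were found at 4 of the 5 genes with a promoter-class POLR2A peak, HSP90B1 being the exception, and at 3 of the 5 genes without one, HSPA1A, HSPA8 and HSPD1. A match is only a run of letters in the window and was not tested for binding.

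As deposited, a promoter-class POLR2A peak was listed for 1 of 4 constitutive genes, HSP90AB1, and for 3 of 4 inducible genes, HSP90AA1, HSPA1B and DNAJB1, beside 11.1% of protein-coding genes. Apart from the DNAJB1 peak, these peaks held 4 or 5 tags, and at a score of at least 50 the counts were 0 of 4 constitutive and 1 of 4 inducible genes, DNAJB1. Exon- or intron-class POLR2A peaks lay at 2 constitutive genes, HSPA8 and HSP90AB1, and at 1 inducible gene, HSP90AA1. The promoter class takes the first 2 kb, which is 79.4% of HSPA1B, 52.7% or 64.5% of DNAJB1 and 31.1% of HSP90AA1. Among constitutive genes it is 41.3% of HSPA8, 25.9% or 28.9% of HSP90AB1 and 14.6% of HSPD1. The part of transcript length in these counts by class was not tested. The POLR2A peak with the most tags in each gene had 9 tags at HSPA8, 5 at HSP90AB1, 4 at HSPD1 and none at HSPE1, against 11 at HSP90AA1, 10 at DNAJB1, 4 at HSPA1B and none at HSPA1A. With no peak taken as 0, the medians were 4.5 for constitutive and 7 for inducible genes, a difference of -2.5 tags. The ranges overlap almost completely. The sign turned when all peaks of a gene were summed, with medians of 11 constitutive and 7 inducible tags, HSPA8 and HSP90AB1 having 3 and 5 peaks. The HSPD1 peak, 4 tags at chr2:198369252-198369570, was upstream-class, at -4413 bp from the listed start, and is listed under MOB4 as well, so HSPD1, the barrel of the mitochondrial chaperonin, had no POLR2A peak at that start or in its body.

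For Flag-USP39 each group had 1 gene with a peak by symbol. These were HSPA8 among the constitutive, HSP90AA1 among the inducible and HSPA5 among the endoplasmic reticulum genes. Their best peaks held 40, 6 and 18 tags. The medians over constitutive and over inducible genes were both 0, so the medians do not separate the groups. Within HSP90, Flag-USP39 was listed along the inducible HSP90AA1 and, by position, along HSP90B1, and not at the constitutive HSP90AB1. HSP90AB1 had 22 POLR2A tags in 5 peaks, the highest with 5, and by position 2 more of 4 tags each near its end, which the table lists under MIR4647. The 2 upstream-class peaks among the 5 were centred at -11614 and -14838 bp from the nearer start.

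**Figure D4:**
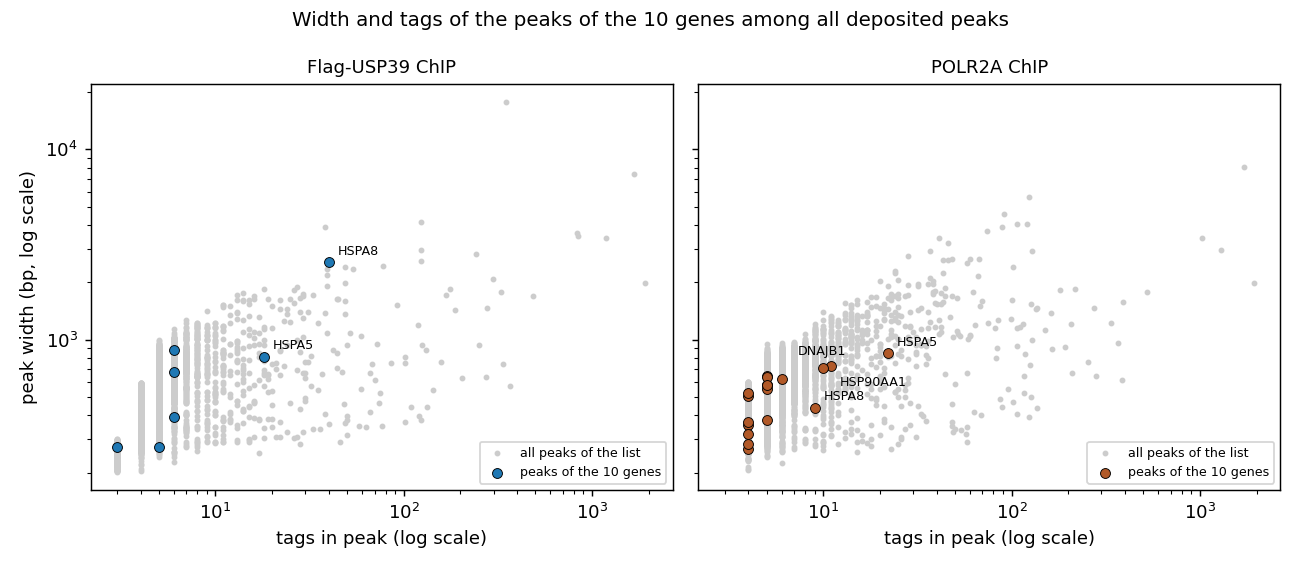
Width in bp against tags of every deposited peak (both axes log scale), Flag-USP39 left and POLR2A right; grey points are all peaks of a list and coloured points the peaks of the 10 genes. The HSPA8 Flag-USP39 peak, 40 tags and 2555 bp, stands at the wide edge of its list, while the 19 POLR2A peaks stay at or below 22 tags and 853 bp.

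The genes closest to HSPA8 in their highest tag counts, by the distance of log2(tags + 1) over the 2 libraries, were MIR612 with 54 Flag-USP39 and 13 POLR2A tags, MIR634 with 38 and 5, and KRT75 and PDIA3P1 with 24 and 12 each. For HSPA5 they were MIR548XHG with 19 and 22 tags, and CXCL14 and LINC02120 with 18 and 24 each. With only 2 libraries such likeness is a description of 2 counts. The names are the symbols under which the peaks are listed, and the peaks need not lie inside those genes.

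A wider list of 65 other chaperone, co-chaperone and stress-response genes was read against the same background. Of the 65, 18 (27.7%) had a Flag-USP39 peak and 30 (46.2%) a POLR2A peak, beside 25.1% and 33.3% of protein-coding genes. Promoter-class peaks were listed for 4 (6.15%) and 21 (32.3%) of them, beside 2.47% and 11.1%. The 4 with a Flag-USP39 promoter-class peak were ATF4, CALR, HSPB1 and UBB, and each also had a promoter-class POLR2A peak. The highest Flag-USP39 peaks of UBB, ATF4 and CALR were centred 856, 1655 and 1780 bp past the start site. Those of UBB and ATF4 overlapped a POLR2A peak, and that of CALR did not. Exon- or intron-class peaks were listed for 10 (15.4%) and 7 (10.8%), beside 11.9% and 13.6%. Among 10 folding factors of the endoplasmic reticulum 6 had a POLR2A promoter peak, CALR, CANX, HYOU1, PDIA4, PDIA6 and SERPINH1, which encode lectin chaperones, an HSP70 relative, disulphide isomerases and a collagen chaperone. Of the 8 genes of TRiC, the cytosolic chaperonin, 2 had one, CCT4 and CCT6A with 5 tags each, and none had a Flag-USP39 peak. None of 9 further HSP70 and HSP110 genes had a promoter-class peak in either list.

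Among the other named genes of this list, UBB, which encodes ubiquitin, had promoter-class peaks of both antibodies. They were centred 856 (Flag-USP39) and 692 bp (POLR2A) past its start site. UBB held 12 Flag-USP39 (6.20 to 21.0) and 16 POLR2A tags (9.15 to 26.0) in overlapping promoter-class peaks. ATF4, a transcription factor of the integrated stress response, had 9 Flag-USP39 tags (4.12 to 17.1) in a promoter-class peak. HSPB1 and MANF followed with 6 Flag-USP39 tags each, in peaks of intergenic and upstream class. For POLR2A, DDIT3, which encodes the stress factor CHOP, had 12 tags (6.20 to 21.0) and DNAJB4, a relative of DNAJB1, 9 tags (4.12 to 17.1), both at promoters and without a Flag-USP39 peak.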

How the data were processed

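Groups were taken from the antibody in the labels: Flag-USP39 ChIP, POLR2A ChIP and input, 1 library each. The submitters' processing notes name Bowtie2 version 2.2.4, MACS version 1.4.3 and hg19. The authors deposited 1 annotated peak table per antibody, with the input named as its control, so peaks were called per library. Tags are raw counts per peak, per the file headers. Per the file headers, the score is minus 10 times the log10 of a p-value. Fold enrichment is a linear ratio over background and the FDR a percent, both as deposited by the authors. Library totals, the annotation used and the treatment of duplicate or multiply placed reads were not given in the sources used here.

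Table lines with a member's symbol were collapsed to 1 per peak, keeping the line with the nearest start site. Overlap needed 1 bp and was tested on simulated lists. Intervals are exact 95% Poisson intervals (scipy 1.17.1). Background shares use 20056 protein-coding genes of RefSeq GRCh38.p14, matched by transcript (99.6% of Flag-USP39 and 99.7% of POLR2A transcripts), for names only. Motifs were searched in the 250 bases before RefSeq start sites. All 10 genes were named; of the 65 others, up to 4 per antibody with the most tags (1 gene that met this rule is not reported here), and the 3 genes nearest to HSPA8 and HSPA5, ties included. Other names make up a small count, head a family's count or share a peak, and were chosen after their values were seen. The members and lists were chosen with earlier results of these data known. No test between conditions was possible. Alternatives were a score of 50 or 100, 6 tags, a 1 kb promoter, other class and gene assignments, a stricter overlap and summed tags.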

Additional observations from a re-analysis of the deposited data

How the results depend on the processing

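The count of genes with a Flag-USP39 peak was 2 to 4 under every alternative tried for it, against 3 as deposited. The count with a Flag-USP39 promoter-class peak was 0 as deposited and 0 under every alternative. A score of 50 or 100, 6 tags and a 1 kb promoter only remove peaks, so they cannot raise a count of 0. Every Flag-USP39 peak already had a score of at least 50. Settings able to raise the count were any listed line of a peak in the promoter class and position within 2 kb of the start. They gave 0 as well, and the position setting was added after the data were seen. The position setting could not cover HSPA1A and HSPE1, for which the lists gave no coordinates. Of the 10 genes, 7 kept a POLR2A peak at a score of at least 50, 4 at a score of at least 100 and 4 at 6 or more tags, against 8 as deposited. Promoter-class POLR2A peaks were left at 2 genes with a score of at least 50, at 1 with a score of at least 100 and at 1 with 6 or more tags, against 5. These filters remove peaks by construction. Overlapping Flag-USP39 peaks numbered 2 at a score of at least 100, 3 at 6 or more tags and, in an alternative added after the data were seen, 8 by position inside transcripts, against 5. The constitutive minus inducible difference in POLR2A tags was 4 with summed peaks, against -2.5 with the highest peak. No paired analysis was possible because each group has 1 library. Most peaks rest on 4 to 6 tags, and genes below 3 or 4 tags could not be listed.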
